A study of Mus musculus with 14 samples.

Results

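Untreated embryoid bodies were profiled on day 2.5 and day 3 of differentiation, and the 12 h between those days are described here across all genes. Members were taken by their titles: 3 control arrays of day 2.5 and 3 control arrays of day 3, 6 of the 14 arrays of the series. Embryoid bodies are aggregates that mouse embryonic stem cells form once the factor that holds them undifferentiated is withdrawn. All 6 samples carry the genotype label wild-type and the label -DOX, which means that no doxycycline was given. Replicates 1 and 2 came from the line iEGS, an embryonic stem cell line with doxycycline-inducible transgenes, and replicate 3 came from a line called iB1, so 1 of the 3 replicates of each day is another line. The stem cells had been kept on mouse embryonic fibroblast feeders with LIF and were differentiated in serum with ascorbic acid. The comparison arrays, used only to show where the untreated cells differ, are 3 of the same lines after 12 h of doxycycline (day 2.5) and 3 after 24 h (day 3). Doxycycline at 1 µg/ml drove Etv2 and Gata2, with Scl (the gene Tal1) named in the titles and genotype label of those samples but not in their descriptions. The mean log2 signal of Tal1 was 7.341 after 12 h and 7.528 after 24 h of doxycycline. Untreated arrays had means of 4.865 on day 2.5 and 5.227 on day 3. A single untreated array of day 2.25, replicate 1 of iEGS, served as an earlier level without a test.

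In the mouse embryo, gastrulation starts when epiblast cells enter the primitive streak, lose their epithelial contacts and leave as mesoderm or definitive endoderm. Nodal, BMP, Wnt and FGF ligands drive the step, and the cells that leave first express secreted antagonists of those same pathways. Embryoid bodies in serum pass through a similar sequence, in which genes of pluripotency give way to genes of the streak and then to regulators of cardiac, lateral and paraxial mesoderm. Blood and endothelium derive from a mesoderm that first makes the VEGF receptor Kdr.

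Values are log2 signals of Affymetrix arrays, on which 1 unit is a 2-fold step, and 19938 genes were tested. A gene was called where the adjusted p of limma's test (Benjamini-Hochberg over all genes, 4 groups in 1 fit) was under 0.05. Each group has 3 arrays, and errors of a change are standard errors from that fit. The submitters describe the replicates as independent experiments. These are bulk cultures, in which fewer cells of a type and less RNA per cell cannot be told apart.

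Between day 2.5 and day 3, 151 genes were called, which is 0.757% of all genes, with 112 higher on day 3 (0.562%) and 39 lower (0.196%). Genes of mesoderm, of the primitive streak and of Wnt, BMP and Nodal regulation led the rises, and genes of the undifferentiated state were among the falls. Rises were the larger changes: 85 genes rose at least 2-fold (0.426%) and 12 fell at least 2-fold (0.0602%). The largest rise was 3.04 and the largest called fall was -1.41 on the log2 scale, against a median change of -0.007 over all genes. The median signal of the 112 genes was 5.93, 5.77 and 5.97 in replicates 1, 2 and 3 on day 2.5 and 7.31, 7.08 and 7.16 on day 3. For the 39 genes the same medians went from 7.14, 7.04 and 7.26 to 6.16, 6.14 and 6.01. By line, the 112 genes changed by a median of 1.24 in iEGS and 1.24 in iB1, the 39 by -0.86 and -0.95. All these medians describe genes chosen on the same arrays, iB1 included, so they are no separate evidence on either line. All 151 called genes had day 3 arrays wholly above or wholly below the day 2.5 arrays, as had 2713 of all genes tested (13.6%), 1220 above (6.12%) and 1493 below (7.49%). Where this separation is described below for a called gene, it therefore adds nothing to the call.

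The arrays were alike as a whole, with pairwise correlations of 0.983 to 0.992 over all genes. Day 2.5 arrays differed more among themselves, by 2-fold or more at 63 to 405 genes per pair, than day 3 arrays, by 37 to 143 genes. Group means of the days differed 2-fold or more at 117 genes. The number of calls depended on single libraries: 21 genes were called without replicate 2 of every group, 17 without replicate 3, 75 and 87 without the day 2.5 array of replicate 2 or 3, and 93 and 67 without the day 3 array of replicate 2 or 3. Of the 56 called genes that were named by rule, 8 kept their call under every alternative tried, namely Aplnr, Asb4, Cfc1, Cxcr4, Gata4, Lhx1, Mesp1 and Pdgfra.

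The label of the tissue is embryonic stem cell, and the arrays of both days carried RNA of stem or epiblast cells together with RNA of streak and mesoderm. The summed linear signal of 7 stem cell and epiblast markers ranged from 6495 to 7370 on day 2.5 and from 4975 to 6121 on day 3, with 1 of the 7, Utf1, called lower. For 5 measured streak and mesoderm markers (Mixl1, Eomes, Mesp1, Pdgfra and Kdr) the sum was 1130 to 1975 and then 3223 to 3758, with 4 of 5 called higher. T, the brachyury gene that defines the streak, could not be matched to a probe set by name and was not analysed here. Fibroblast genes, which could come from feeders, held a sum of 959.3 to 1006 on day 2.5 and 919.1 to 972.9 on day 3. None of the 15 was called in either direction, where 0.757% of all genes were, and 8 of the 15 lay below the 40th percentile of all genes. Sums for endothelium (Cdh5, Pecam1, Tek, Tie1 and Esam), visceral endoderm, primitive blood and neural markers were low, the highest being 215.6 in any control array, and no marker of these 4 sets was called.

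**Figure D1:**
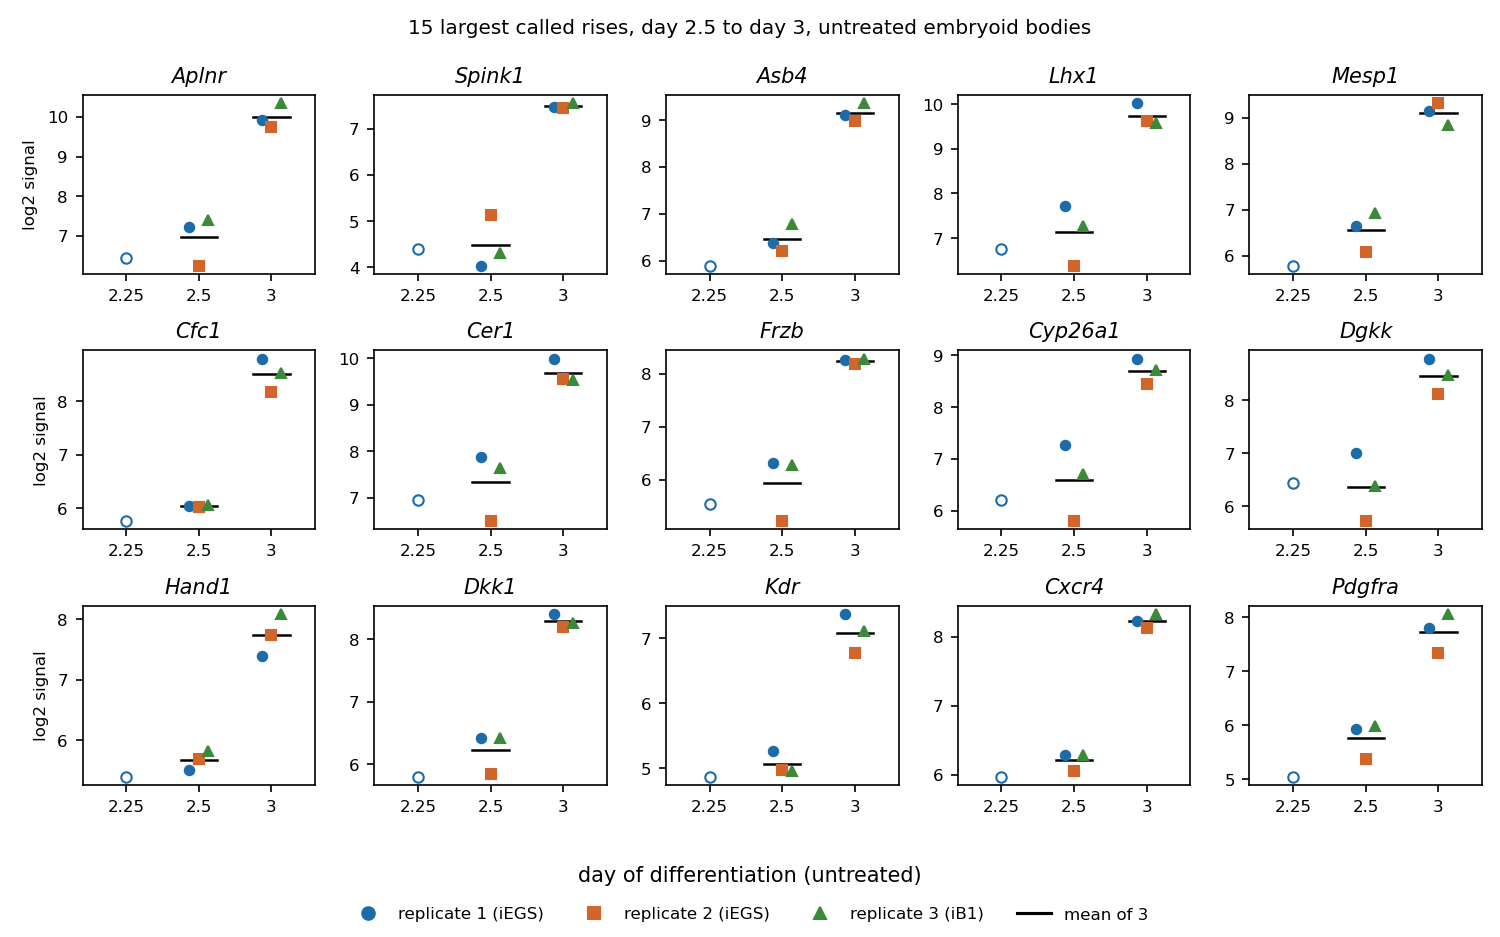
Log2 signal (vertical axis) of the 15 genes with the largest called rises, by day of differentiation (horizontal axis); each symbol is 1 array, the bar is the mean of 3 and the open circle is the single day 2.25 array. In every panel the 3 day 3 arrays lie above the 3 day 2.5 arrays, from Aplnr, with a rise of 3.04, to Pdgfra, with 1.97.

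Regulators and receptors of cardiac and lateral mesoderm had the highest share of called genes among the 25 lists. All lists were chosen with earlier results of these data known, so their shares are a description and no test of a list. Of 23 genes measured, 10 rose and none fell (43.5% called higher, against 0.562% of all genes), and the median change was 0.60 against -0.007. Aplnr, the apelin receptor of early mesoderm, read 7.23, 6.25 and 7.41 in replicates 1, 2 and 3 on day 2.5 and 9.93, 9.74 and 10.35 on day 3. Its day 3 arrays stood far above all of day 2.5, and the rise of 3.04 ± 0.305 (8.25-fold) had an adjusted p of 0.00023. Mesp1, a basic helix-loop-helix factor of the first cardiac mesoderm, read 6.65, 6.08 and 6.94 and then 9.15, 9.32 and 8.84. It was 5.84-fold higher, a rise of 2.54 ± 0.232 (adjusted p = 0.000119), from 5.79 in the day 2.25 array. Pdgfra, the receptor that marks nascent paraxial and cardiac mesoderm, went from 5.93, 5.38 and 5.98 to 7.80, 7.34 and 8.06, a rise of 1.97 ± 0.211 (adjusted p = 0.000341). Hand1, a factor of lateral and extraembryonic mesoderm, went from 5.51, 5.68 and 5.81 to 7.39, 7.74 and 8.09, a rise of 2.07 ± 0.306 (adjusted p = 0.00382). No array of either day crossed into the other for these genes, which holds for every called gene. The zinc finger factors Gata4 and Gata6 rose by 1.61 and 1.63, and Myl7, an atrial myosin light chain, by 1.58. Mesp2, Tbx20 and Bmp4 completed the 10, with rises of 1.22, 1.18 and 1.10. Aplnr, Mesp1, Pdgfra and Gata4 kept their call with any replicate or control array left out, whereas Myl7 lost it without replicate 2, and Hand1, Gata6, Mesp2, Tbx20 and Bmp4 lost it without replicate 2 and without replicate 3.

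Genes of paraxial mesoderm, the tissue that forms the somites, rose as well. Of 20 measured, 6 rose and none fell, with a median change of 0.63. Rspo3, a secreted amplifier of Wnt signalling, went from 7.09, 6.45 and 7.02 to 8.95, 8.53 and 8.85, a rise of 1.92 ± 0.214 (3.79-fold, adjusted p = 0.000456). Msgn1, the mesogenin factor of presomitic mesoderm, went from 5.57, 5.94 and 5.48 to 7.28, 7.11 and 6.82, a rise of 1.41 ± 0.191 (adjusted p = 0.00211). Day 3 was above day 2.5 in all arrays of both genes. Snai1, the repressor of E-cadherin in cells that leave the streak, rose by 1.36, Tbx6, a T-box factor of presomitic cells, by 1.14 and the Notch ligand Dll1 by 1.00. Mesp2, which acts where somite borders form, is also on this list. Tcf15, a factor of formed somites, was not called, with a change of -0.39 ± 0.176. Without replicate 3, Rspo3 lost its call, without replicate 2, Snai1, and without either, Msgn1, Tbx6, Dll1 and Mesp2.

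Of 23 streak and organiser genes measured, 7 rose (30.4%, against 0.562% of all genes) and none fell, and the median change was 0.56. The secreted antagonists Cer1, Frzb and Dkk1 are among the 7 and are described below with their pathways. Lists share members in this way, so their counts are not separate evidence. Lhx1, a LIM homeobox factor of the organiser and anterior mesendoderm, went from 7.72, 6.38 and 7.28 to 10.02, 9.62 and 9.58, a rise of 2.62 ± 0.300 (6.13-fold, adjusted p = 0.00055). Mixl1, a homeobox factor of the streak, read 9.66, 8.54 and 9.50 on day 2.5, when replicate 2 was the lowest, and 10.57, 10.38 and 10.34 on day 3. Its rise of 1.19 ± 0.254 was near the threshold (adjusted p = 0.046). Eomes, the T-box factor that specifies cardiac mesoderm and endoderm, was at 9.91, 9.27 and 9.80 and then at 10.32, 10.29 and 10.06, and its change of 0.56 ± 0.202 was not called (adjusted p = 0.435). Gsc, the goosecoid factor of the organiser, and Evx1, a homeobox factor of the posterior streak, had changes of 0.72 each that were not called (adjusted p = 0.362 and 0.0971). Wnt3, the ligand that starts the streak, had a change of 0.40 (adjusted p = 0.838), Foxa2, of anterior streak and endoderm, 0.43 (adjusted p = 0.863). Amot, an angiomotin that binds Yap, rose by 1.40. Among these, Lhx1 alone kept its call with any library left out. Amot lost it without replicate 2, without replicate 3 or without single control arrays, and Mixl1 in these cases as well as in the fit of the 6 control arrays, with all probe sets tested and when each array was centred on its median.

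The list of the Wnt pathway held 36 measured genes, of which 5 rose and none fell, with a median change of 0.18. Frzb, a secreted Frizzled-related protein that binds Wnt ligands, went from 6.32, 5.22 and 6.27 to 8.26, 8.19 and 8.29, a rise of 2.31 ± 0.326 (4.96-fold, adjusted p = 0.00264). Dkk1, which blocks the Wnt co-receptor Lrp6, went from 6.42, 5.85 and 6.43 to 8.41, 8.21 and 8.26, a rise of 2.06 ± 0.260 (4.17-fold, adjusted p = 0.00119). For both antagonists the lowest day 3 array exceeded the highest day 2.5 array, and replicate 2 was the lowest on day 2.5. Rspo3 acts in the opposite sense, and Wnt5a is a ligand that acts mostly outside the β-catenin route. Wnt5a rose by 1.34 (adjusted p = 0.00665). Sp5, a zinc finger gene known as a direct β-catenin target, rose by 1.28 (adjusted p = 0.00681). Lgr5, the receptor of R-spondins, had a change of 1.18 ± 0.273 that was not called (adjusted p = 0.0706). Dkk1 and Rspo3 lost their call without replicate 3, and Frzb, Wnt5a and Sp5 without replicate 2 and without replicate 3.

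The 250 bases before the start of 4 genes are given to show where the short words searched for lie in mesoderm regulators and Wnt antagonists that rose. They come from RefSeq on GRCm38.p6, run 5′ to 3′ on the strand of the gene, and carry in capitals the matches to CTTTGA, the core that TCF and LEF factors bind, and to AGGTGT, a T-box half-site, on either strand (TCAAAG and ACACCT on the other). Mesp1 lies at chr7:79793591-79793840, Msgn1 at chr12:11208949-11209198, Dkk1 at chr19:30549497-30549746 and Frzb at chr2:80447397-80447646, each on the minus strand.
Mesp1: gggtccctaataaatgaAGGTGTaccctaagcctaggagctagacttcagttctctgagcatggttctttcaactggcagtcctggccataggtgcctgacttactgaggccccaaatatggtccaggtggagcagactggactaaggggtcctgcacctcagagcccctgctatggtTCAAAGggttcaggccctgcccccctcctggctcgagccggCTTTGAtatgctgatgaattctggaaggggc
Msgn1: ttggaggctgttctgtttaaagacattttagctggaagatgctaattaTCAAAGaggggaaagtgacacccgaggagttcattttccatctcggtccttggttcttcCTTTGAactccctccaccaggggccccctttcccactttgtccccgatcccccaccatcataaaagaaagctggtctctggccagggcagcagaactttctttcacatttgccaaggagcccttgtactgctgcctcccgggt
Dkk1: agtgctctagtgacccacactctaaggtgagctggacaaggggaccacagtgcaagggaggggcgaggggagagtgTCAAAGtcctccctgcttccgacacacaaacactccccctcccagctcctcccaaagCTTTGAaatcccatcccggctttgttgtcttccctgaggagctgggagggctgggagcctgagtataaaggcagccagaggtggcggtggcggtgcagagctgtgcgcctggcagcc
Frzb: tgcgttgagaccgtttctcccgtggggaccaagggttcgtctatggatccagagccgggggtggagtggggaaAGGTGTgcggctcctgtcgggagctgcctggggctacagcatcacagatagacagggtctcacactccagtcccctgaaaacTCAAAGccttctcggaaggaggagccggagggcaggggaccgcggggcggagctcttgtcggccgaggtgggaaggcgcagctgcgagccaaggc
These 4 were chosen because they hold such words and are not typical. CTTTGA was found in 13.6% of the 110 promoters of genes called higher (84 of 112 genes had at least 1 promoter in the table), in 12.8% of the 39 promoters of genes called lower and in 13.8% of all 32851 promoters. AGGTGT was found in 12.7%, 15.4% and 11.8%, and AGATAA, which factors of the Gata family bind, in 12.7%, 5.13% and 9.99%. The words are short, differ from one another, and a match here is a description of letters and not of binding.

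Ligands and inhibitors of the Nodal and BMP pathways moved in both directions. Of 35 genes measured, 6 rose and 3 fell, and the median change was 0.22. Cer1, the secreted antagonist of Nodal, BMP and Wnt ligands, went from 7.87, 6.50 and 7.64 to 9.99, 9.55 and 9.52, a rise of 2.35 ± 0.319 (5.11-fold, adjusted p = 0.00211). Bmp2 went from 5.55, 4.34 and 5.25 to 7.28, 6.65 and 7.03, a rise of 1.94 ± 0.282 (3.84-fold, adjusted p = 0.00331). Day 3 exceeded day 2.5 in every array of these, with replicate 2 the lowest of the day 2.5 arrays. Bmp7 and Bmp4 rose by 1.22 and 1.10, and Msx2 and Msx1, homeobox genes known as BMP targets, by 1.43 and 1.06. Id1, another BMP target, had a change of 0.78 ± 0.174 that was not called (adjusted p = 0.0616), while its relative Id2 fell by 0.81 (adjusted p = 0.0472). Lefty1, an inhibitor that Nodal itself induces, went from 8.49, 8.03 and 8.07 to 7.33, 7.21 and 6.61, a fall of 1.15 (change -1.15 ± 0.231, adjusted p = 0.033). Gdf3, a Nodal-related ligand of stem cells, changed by -1.33 ± 0.219 (adjusted p = 0.0082). Lefty2 (0.44 ± 0.274, adjusted p = 0.97) and Nodal (-0.40 ± 0.187, adjusted p = 0.748) were not called. Cfc1, an EGF-CFC co-receptor for Nodal-type ligands, was flat in all day 2.5 arrays, at 6.05, 6.03 and 6.06, and stood at 8.80, 8.18 and 8.54 on day 3, a rise of 2.46 ± 0.170 (5.51-fold, adjusted p = 7.73e-06). Cfc1 kept its call with any library left out, and Cer1 lost it without replicate 3. Bmp2, Bmp4, Bmp7, Msx1, Msx2, Lefty1, Gdf3 and Id2 lost theirs without replicate 2 and without replicate 3, and Msx1, Gdf3, Lefty1 and Id2 also without single control arrays, Id2 also without replicate 1, with line as a covariate, after centring or a new quantile normalisation and with all probe sets tested.

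**Figure D2:**
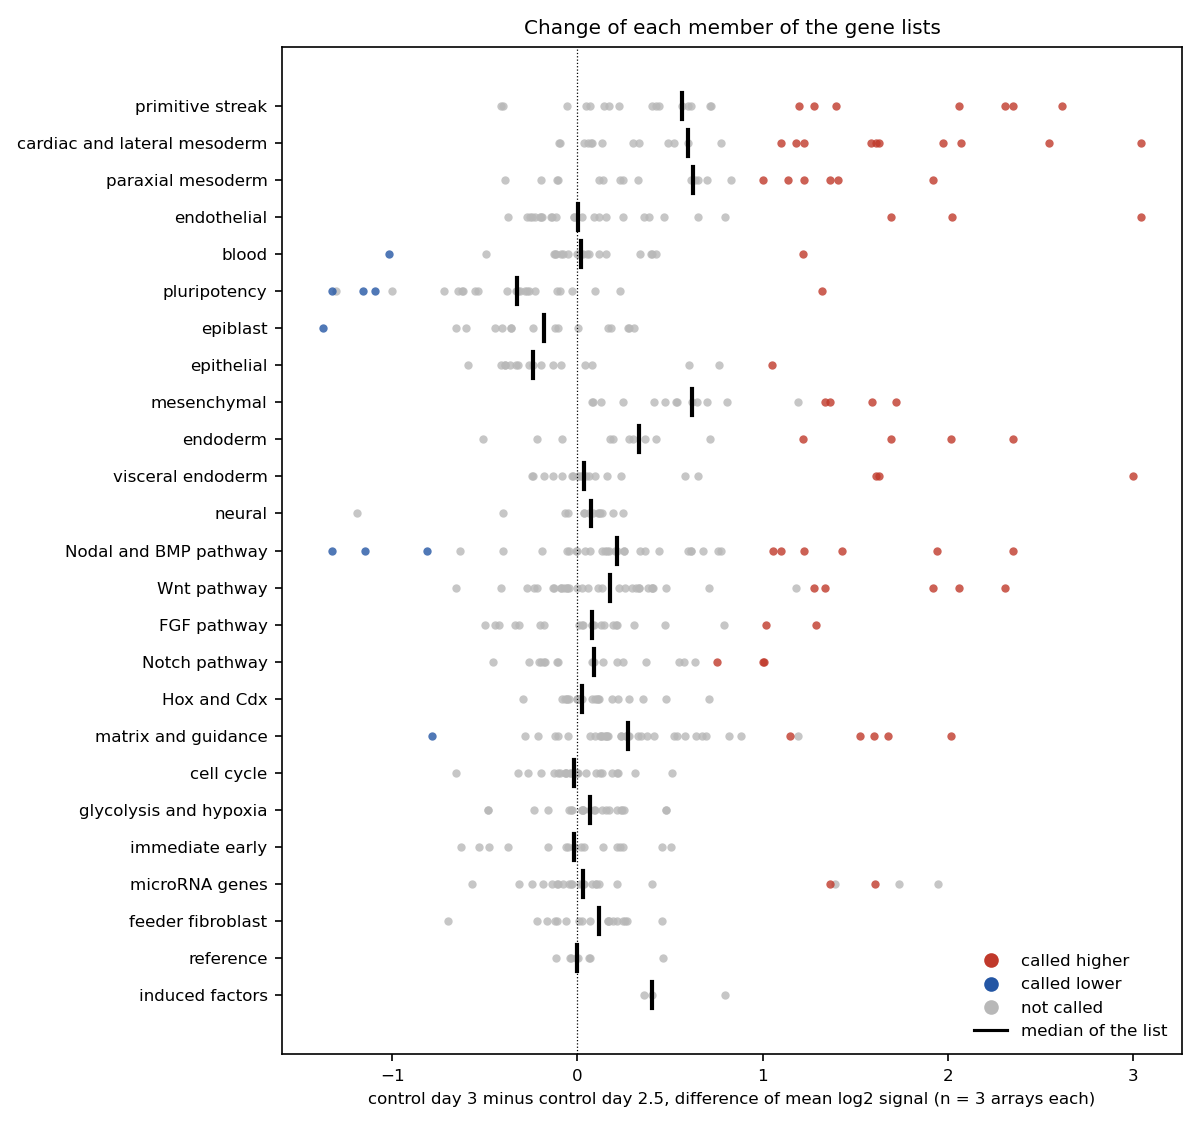
Change from day 2.5 to day 3 (horizontal axis, difference of mean log2 signal) of each member of 25 gene lists (rows); red points were called higher, blue points lower, grey points were not called, and the bar is the list's median. Cardiac and lateral mesoderm, with a median of 0.60 and 10 genes called higher, stand to the right of lists such as cell cycle, with a median of -0.02 and no called gene. The lists were chosen with earlier results of these data known.

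In the FGF list 2 of 23 genes rose and none fell (median 0.08). Fgf10 rose by 1.29 ± 0.229 (adjusted p = 0.0153) and Fgf3 by 1.02 ± 0.155 (adjusted p = 0.0051). Fgf8, the ligand that cells need to leave the streak, had a change of 0.14 ± 0.232 and was not called. In the Notch list 3 of 21 rose, the ligands Jag1 (1.01 ± 0.199) and Dll1 (1.00 ± 0.154) and the effector Hey1 (0.75 ± 0.153), with a median of 0.09 and no fall. Fgf10, Fgf3, Jag1, Dll1 and Hey1 each lost their call without replicate 2 and without replicate 3, Fgf10 and Jag1 also without single control arrays, and Hey1 without replicate 1, without single control arrays and in the fit of the 6 control arrays alone.

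Of 17 mesenchymal genes measured, 4 rose, Cdh2, Cdh11, Snai1 and Tgfb1, and none fell. All 17 had a positive change, as had 9649 of all 19938 genes. Their median was 0.62, and the other 13 were not called. Cdh2, or N-cadherin, went from 8.23, 7.58 and 8.06 to 9.92, 9.48 and 9.62, a rise of 1.72 ± 0.224 (3.30-fold, adjusted p = 0.0016). The type II cadherin Cdh11 rose by 1.59 and Tgfb1 by 1.34. Fn1, or fibronectin, and Vim, or vimentin, had changes of 1.19 ± 0.288 and 0.65 ± 0.206 that were not called (adjusted p = 0.0888 and 0.309). The 17 epithelial genes had a median of -0.24, with 1 called. Cdh1, or E-cadherin, was at 10.73, 10.75 and 10.66 on day 2.5 and at 10.46, 10.39 and 10.32 on day 3. This small separation without overlap was shared by 7.49% of all genes, and the change of -0.33 ± 0.145 was not called (adjusted p = 0.699). Epcam, an adhesion molecule of epithelia, had a change of -0.20. The single called gene of that list, the keratin Krt8, was higher on day 3, by 1.05 ± 0.188 (adjusted p = 0.0155). Its partners Krt18 (0.60, adjusted p = 0.295) and Krt19 (0.77, adjusted p = 0.0634) were not called. Cdh2, Cdh11, Tgfb1 and Krt8 lost their call without replicate 2 and without replicate 3, Tgfb1 also without the day 3 array of replicate 3, Krt8 also without single control arrays and in the fit of the 6 control arrays alone, and Snai1 lost it without replicate 2.

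In the list of matrix and guidance genes 5 of 39 rose and 1 fell, with a median of 0.27, and the 6 that were called act in guidance or chemotaxis. Cxcr4, the chemokine receptor of migrating mesendoderm, went from 6.29, 6.05 and 6.29 to 8.23, 8.12 and 8.33, a rise of 2.02 ± 0.161 (4.05-fold, adjusted p = 3.44e-05). Its ligand Cxcl12 went the other way, from 6.82, 7.04 and 7.33 to 6.16, 6.40 and 6.29, with a change of -0.78 ± 0.167 (adjusted p = 0.0467). Receptor and ligand each separated the days without overlap, in opposite directions. The semaphorin Sema6d rose by 1.68, the plexin receptors Plxna2 and Plxna4 by 1.60 and 1.15 and the secreted repellent Slit2 by 1.53. Nrp1, the neuropilin co-receptor of semaphorins and VEGF, was chosen after its values were seen and rose by 1.55 (adjusted p = 0.00732). Cxcr4 kept its call with any library left out, and Sema6d lost it without replicate 3. Slit2, Plxna2, Plxna4, Nrp1 and Cxcl12 lost theirs without replicate 2 and without replicate 3, Nrp1, Plxna4 and Cxcl12 also without single control arrays, Plxna4 and Cxcl12 in the fit of the 6 control arrays alone, Plxna4 also without replicate 1 and Cxcl12 also after a new quantile normalisation and with all probe sets tested.

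The endoderm list had 4 of 14 genes higher, Cer1, Cxcr4, Sox17 and Hhex, with a median of 0.33 and no fall. Sox17, an HMG-box factor of definitive endoderm that endothelium also makes, went from 4.76, 4.96 and 5.35 to 7.05, 6.52 and 6.58, a rise of 1.69 ± 0.195 (3.23-fold, adjusted p = 0.00055). Hhex, a homeobox factor of anterior endoderm and blood precursors, rose by 1.22 ± 0.213 (adjusted p = 0.0131). Of 20 visceral endoderm genes 3 rose, and the 3 were Spink1, Gata6 and Gata4, with a median of 0.04 over the list. Spink1, a secreted inhibitor of trypsin-like proteases, went from 4.04, 5.13 and 4.31 to 7.47, 7.45 and 7.56, a rise of 3.00 ± 0.479 (7.99-fold, adjusted p = 0.00666). The visceral endoderm markers Afp, Ttr, Apoa1, Amn and Cubn were not called, and their summed linear signal was 123.5 to 181.6 on day 2.5 and 127.8 to 168.9 on day 3. Sox17 lost its call without replicate 2, and Hhex, Spink1 and Gata6 without replicate 2 and without replicate 3, Hhex also without single control arrays.

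Most endothelial and blood genes were not called, as was true of most of all genes. Of 26 endothelial genes 3 rose (11.5%, against 0.562% of all genes), and the median change was 0.003. The 3 were Aplnr, Kdr and Sox17, all of which mesoderm or endoderm also makes. Kdr, the VEGF receptor of mesoderm that can form blood and vessels, went from 5.26, 4.97 and 4.96 to 7.37, 6.77 and 7.12, a rise of 2.02 ± 0.264 (4.06-fold, adjusted p = 0.0016). Day 3 arrays of Kdr were all at least 1.5 units above those of day 2.5. Flt1, the other VEGF receptor, had a change of 0.65 ± 0.237 (adjusted p = 0.463) and Cdh5, or VE-cadherin, 0.39 ± 0.230 (adjusted p = 0.937), neither called. Of 21 blood genes 1 rose, Hhex, and 1 fell, Myb, a factor of definitive blood progenitors. Each is 4.76% of the list, against 0.562% of all genes called higher and 0.196% called lower. Myb went from 7.54, 7.80 and 7.73 to 6.98, 6.56 and 6.47, a change of -1.02 ± 0.167 (adjusted p = 0.00797). The embryonic globin Hbb-bh1 was near the bottom of the signal range, at 2.73 to 2.90 on day 2.5 and 2.77 to 3.07 on day 3. Of the factors that doxycycline induces in the other samples, Etv2 read 7.38, 6.77 and 6.92 and then 7.85, 8.05 and 7.55. Its day 3 arrays lay above without overlap, as did those of 6.12% of all genes. Its change of 0.80 ± 0.192 was not called (adjusted p = 0.0879) but was with replicate as a block in the fit (0.80, adjusted p = 0.0234). It was also called with replicate 1 left out (0.96, adjusted p = 0.0247) and without the day 2.5 array of replicate 1 (0.97, adjusted p = 0.0368). A new quantile normalisation gave a call as well (0.80, adjusted p = 0.0411). Its adjusted p ranged up to 1, without replicate 2 (0.55). Gata2 (0.40 ± 0.179, adjusted p = 0.707) and Tal1 (0.36 ± 0.239, adjusted p = 0.997) overlapped between the days. Kdr and Myb lost their call without replicate 2 and without replicate 3, and Myb also without the day 3 array of either of those replicates.

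**Figure D3:**
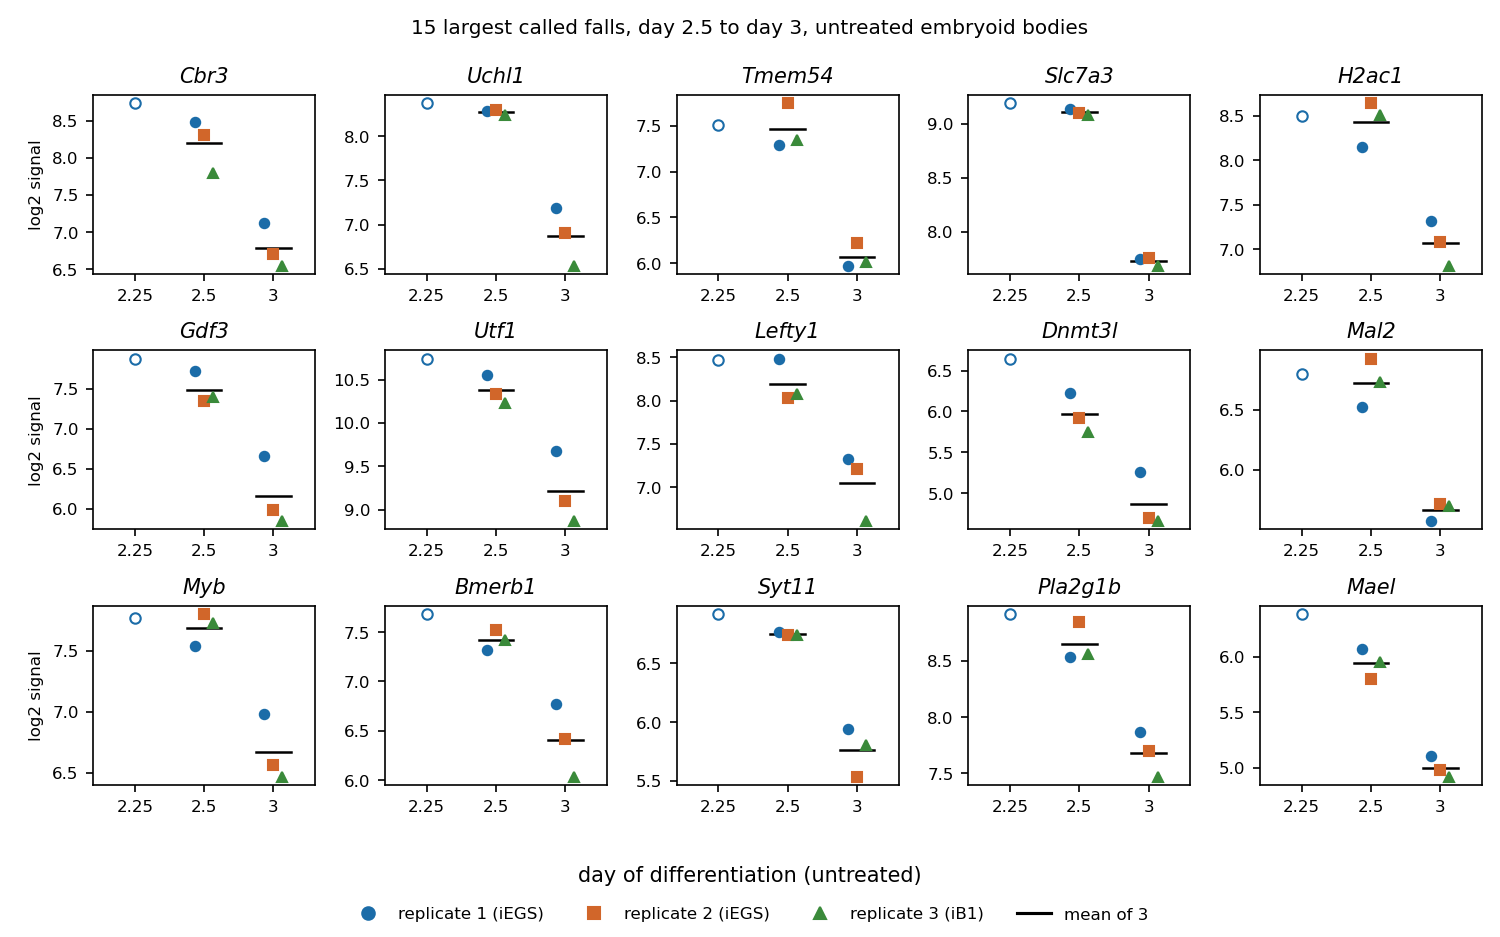
Log2 signal (vertical axis) of the 15 genes with the largest called falls, by day of differentiation (horizontal axis); symbols as for the rises, each 1 array, with the bar at the mean of 3. All day 3 arrays lie below all day 2.5 arrays in each panel, from Cbr3, with a change of -1.41, to Mael, with -0.94.

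Pluripotency genes leaned lower, and the 3 that fell are known for the stem cell state rather than being its core regulators. Of 26 measured, 3 fell (11.5%, against 0.196% of all genes) and 1 rose (3.85%, against 0.562%). A negative change was found in 23, with a median of -0.33, while 9649 of all 19938 genes had a positive change. Utf1, a chromatin factor of stem cells, went from 10.55, 10.34 and 10.23 to 9.67, 9.11 and 8.87, a change of -1.16 ± 0.217 (2.23-fold lower, adjusted p = 0.0195). Gdf3 went from 7.73, 7.35 and 7.40 to 6.66, 5.98 and 5.85. Dnmt3l, the cofactor of de novo DNA methylation, changed by -1.09 ± 0.235 (adjusted p = 0.0493), at the edge of the threshold. In all 3 genes replicate 1 was the highest of the day 3 arrays. Tbx3, which serves stem cells and also early mesoderm, rose by 1.32 ± 0.160 (adjusted p = 0.000769). Pou5f1, Nanog and Sox2, the core regulators, had changes of -0.33 ± 0.154, -0.33 ± 0.168 and -0.32 ± 0.301 that were not called. Pou5f1 was still at 11.00, 10.91 and 10.52 on day 3. Dppa2, a germline and stem cell gene, had a larger change, -1.30 ± 0.296, that missed the threshold (adjusted p = 0.0642). The 16 epiblast genes had a median of -0.18. Slc7a3, a carrier of cationic amino acids, was the called one, at 9.14, 9.10 and 9.08 and then 7.75, 7.76 and 7.69, a change of -1.37 ± 0.167 (2.59-fold lower, adjusted p = 0.000769). Fgf5 and Otx2, genes of the formed epiblast, had changes of 0.31 and 0.28 that were not called. Slc7a3 lost its call without replicate 2 and Tbx3 without replicate 3. Utf1, Gdf3 and Dnmt3l lost theirs without replicate 2, without replicate 3 and without single control arrays, Dnmt3l also after a new quantile normalisation and with all probe sets tested.

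Beyond these lists the larger falls took in genes of several kinds. Cbr3, a carbonyl reductase, changed by -1.41 ± 0.283 (adjusted p = 0.0324), and Uchl1, a ubiquitin hydrolase, by -1.40 ± 0.229 (adjusted p = 0.00774). Uchl1 was nearly equal in the day 2.5 arrays, at 8.29, 8.30 and 8.24, and spread more on day 3, at 7.19, 6.90 and 6.53. Mal2, a protein of apical transport in epithelia, went from 6.52, 6.92 and 6.73 to 5.58, 5.72 and 5.70, a change of -1.06 ± 0.149 (adjusted p = 0.00264). The days did not overlap in any of these. Mael, of the piRNA pathway, and the synaptotagmin Syt11 changed by -0.94 and -0.99, and the membrane protein Tmem54 by -1.40. Uchl1, Mal2, Mael, Syt11 and Tmem54 lost their call without replicate 2 and without replicate 3, and Cbr3 without replicate 2, Cbr3, Uchl1, Mael, Syt11 and Tmem54 also without single control arrays.

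No call was made in the lists for neural genes (14 measured, median 0.07), Hox and Cdx genes (23, 0.02), cell cycle (25, -0.02), glycolysis and hypoxia (23, 0.07), immediate early genes (17, -0.02), feeder fibroblast genes (18, 0.12) and reference genes (8, -0.001). As 0.757% of all genes were called, a list of this size without a call is near that share and says little about its genes. Of the Hox and Cdx genes 18, and of the neural genes 10, lay below the 40th percentile of signal. Tubb3, a neuronal tubulin on the neural list, had a change of -1.19 ± 0.272 that was not called (adjusted p = 0.067). Hoxb1, the earliest Hox gene of the streak, had day 3 arrays above day 2.5, as had 6.12% of all genes. Its change of 0.48 ± 0.138 was not called (adjusted p = 0.219). Actb, a reference gene, had a change of -0.04.

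Asb4, Cyp26a1 and Dgkk were among the largest rises and lay outside the groups above. Asb4, a substrate receptor of a ubiquitin ligase, had the smallest p of all genes: 6.38, 6.20 and 6.78 on day 2.5 and 9.10, 8.98 and 9.36 on day 3, a rise of 2.69 ± 0.160 (6.47-fold, adjusted p = 2.04e-06). Cyp26a1, the enzyme that degrades retinoic acid, rose by 2.11 ± 0.290 (adjusted p = 0.00229) and Dgkk, a diacylglycerol kinase, by 2.09 ± 0.329 (adjusted p = 0.00629). In both, replicate 2 was the lowest of the day 2.5 arrays. Asb4 kept its call with any library left out, Cyp26a1 lost it without replicate 3 and Dgkk without replicate 2 and without replicate 3.

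Of the 5 hairpins of the miR-302 and miR-367 cluster, 2 rose, Mir302b and Mir302c. This cluster encodes microRNAs of pluripotent and early differentiating cells, and the miR-302 members share much of the seed, the bases that pair with targets, while miR-367 has another. Its 5 hairpins lie in the order Mir302b, Mir302c, Mir302a, Mir302d and Mir367 within 580 bases at chr3:127545228-127545807 on the plus strand of GRCm38.p6. The mature sequences of the 3′ arms, from RefSeq, are given to show the seeds, bases 2 to 8 in capitals.
mmu-miR-302b-3p: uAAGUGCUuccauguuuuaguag
mmu-miR-302c-3p: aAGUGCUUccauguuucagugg
mmu-miR-302d-3p: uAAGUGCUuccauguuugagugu
mmu-miR-367-3p: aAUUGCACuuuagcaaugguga
The seed AAGUGCU is shared by miR-302b-3p and miR-302d-3p, while miR-302c-3p has AGUGCUU and miR-367-3p has AUUGCAC; miR-302a-3p is named only. Mir302c read 5.55, 4.94 and 5.64 on day 2.5 and 6.45, 7.59 and 6.91 on day 3, a rise of 1.61 ± 0.299 (3.05-fold, adjusted p = 0.0186). Mir302b read 3.87, 3.52 and 3.77 and then 4.68, 5.65 and 4.94, a rise of 1.37 ± 0.229 (2.58-fold, adjusted p = 0.00929). Both separated the days, with replicate 2 the highest on day 3 and the lowest on day 2.5. Mir302b was dim, at percentile 30.6 of signal, and was not tested where dim genes were left out. Mir302a (1.95 ± 0.468, adjusted p = 0.0865), Mir302d (1.39 ± 0.320, adjusted p = 0.0682) and Mir367 (1.74 ± 0.514, adjusted p = 0.238) were not called. Their day 3 arrays lay above those of day 2.5 without overlap, as did those of 6.12% of all genes. All 3 were called without replicate 1 and with replicate as a block in the fit. Mir302a and Mir302d were also called with line as a covariate or without the day 3 array of replicate 1. Mir302d was called as well with dim genes left out or in the fit of the 6 control arrays alone. In the whole list of 26 microRNA genes measured, 2 rose, none fell and the median was 0.03. The hairpins are neighbours, so these are not 5 separate observations, and the arrays read precursor RNA rather than mature microRNA. Mir302b and Mir302c lost their call without replicate 2, without replicate 3 and without the day 2.5 array of replicate 2, Mir302c also without the day 3 array of replicate 2 or 3.

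**Figure D4:**
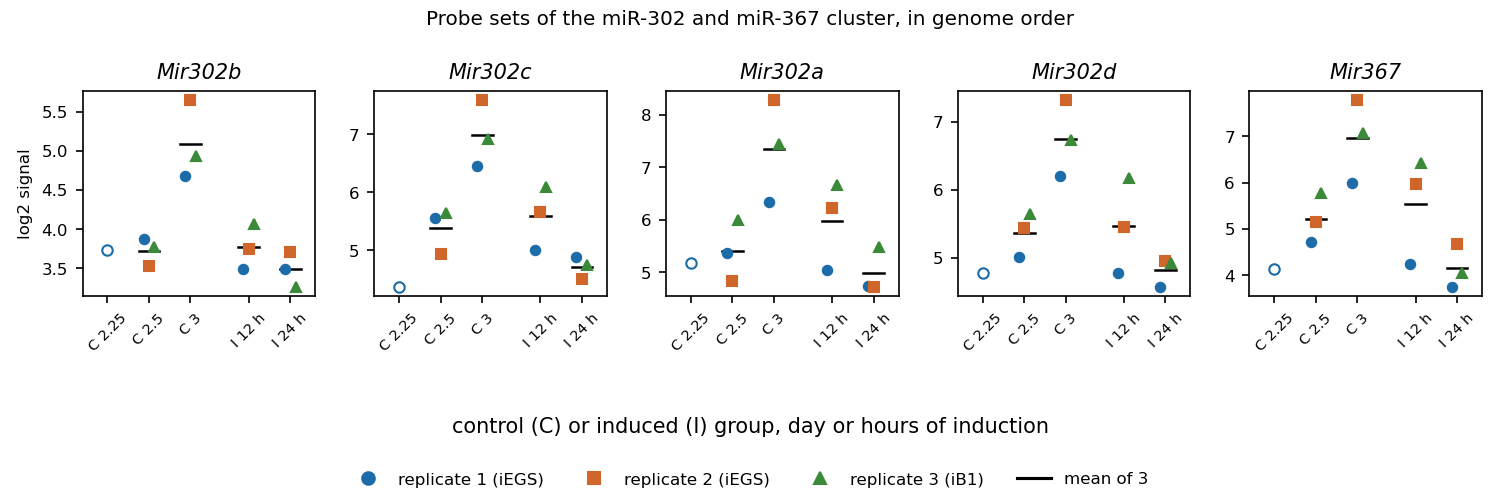
Log2 signal (vertical axis) of the 5 probe sets of the miR-302 and miR-367 cluster in control (C, days 2.25, 2.5 and 3) and induced (I, 12 h and 24 h) groups (horizontal axis); each symbol is 1 array, with the bar at the mean of 3. Control day 3 arrays lie above control day 2.5 arrays in all 5 panels, with Mir302c at 6.45 to 7.59 on day 3.

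The change of the called genes over the same 12 h was also read in doxycycline-treated cells, 24 h against 12 h of induction. A rise that came before 12 h of induction is missed by this change, and such genes were not counted. Kdr had a mean of 7.022 at 12 h of induction, against 5.063 in day 2.5 and 7.085 in day 3 controls. For Hhex the same means were 7.463, 5.142 and 6.362, whereas for Mesp1 they were 4.76, 6.557 and 9.102. Between 12 h and 24 h of induction 360 genes were called (1.81%), 111 higher (0.557%) and 249 lower (1.25%). Of the 112 genes that rose in untreated cells, 8 rose in induced cells (7.14%) and 3 fell (2.68%), and the median change was 0.075 in place of 1.22. Of the 39 that fell in untreated cells, 23 fell in induced cells (59%) and none rose, with medians of -0.88 and -0.90. The test of the difference between the changes passed for 85 of all genes (0.426%), with the control change above the induced change in 65 (0.326%). It passed for 42 of the 112 and for none of the 39. Genes were chosen here on their change in untreated cells, which enters the difference and raises it for the 112, so these counts are a description. Without replicate 2 the test of the difference passed for 4 genes in all, and without replicate 3 for 2.

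The 8 that rose in both kinds of culture were Aplnr, Rspo3, Sox17, Tbx3, Igf2, Bmp4, Inka1 and Ppic. Rspo3 had a change of 1.92 in untreated and 1.41 in induced cells, Aplnr 3.04 and 1.61, Bmp4 1.10 and 0.95. For none of these 3 did the difference of the changes pass the test (adjusted p = 0.981, 0.328 and 0.999). Cer1, Cdh2 and Upp1, a uridine phosphorylase, rose in untreated and fell in induced cells. Cer1 read 6.95, 5.95 and 6.38 at 12 h of induction and 4.72, 4.19 and 4.32 at 24 h, a change of -2.02 ± 0.319 (adjusted p = 0.00442), where untreated cells rose by 2.35. Mesp1 was at 4.52, 4.73 and 5.03 at 12 h and 4.49, 5.14 and 4.61 at 24 h, below every untreated array of either day. Pdgfra likewise read 4.67 to 5.27 at 12 h and 4.90 to 5.06 at 24 h, and Asb4 5.34 to 5.43 and 5.29 to 5.46, with changes of -0.007 and -0.003. Induced Pdgfra and Asb4 thus stayed under all day 2.5 controls. Mir302c changed by -0.87 in induced cells, and its difference passed (adjusted p = 0.0163). Among the falls, Slc7a3 changed by -1.37 in both kinds of culture, Mal2 by -1.06 and -1.62 and Myb by -1.02 and 0.03. In no case of these 3 did the difference pass, the nearest being Myb (adjusted p = 0.0927).

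**Figure D5:**
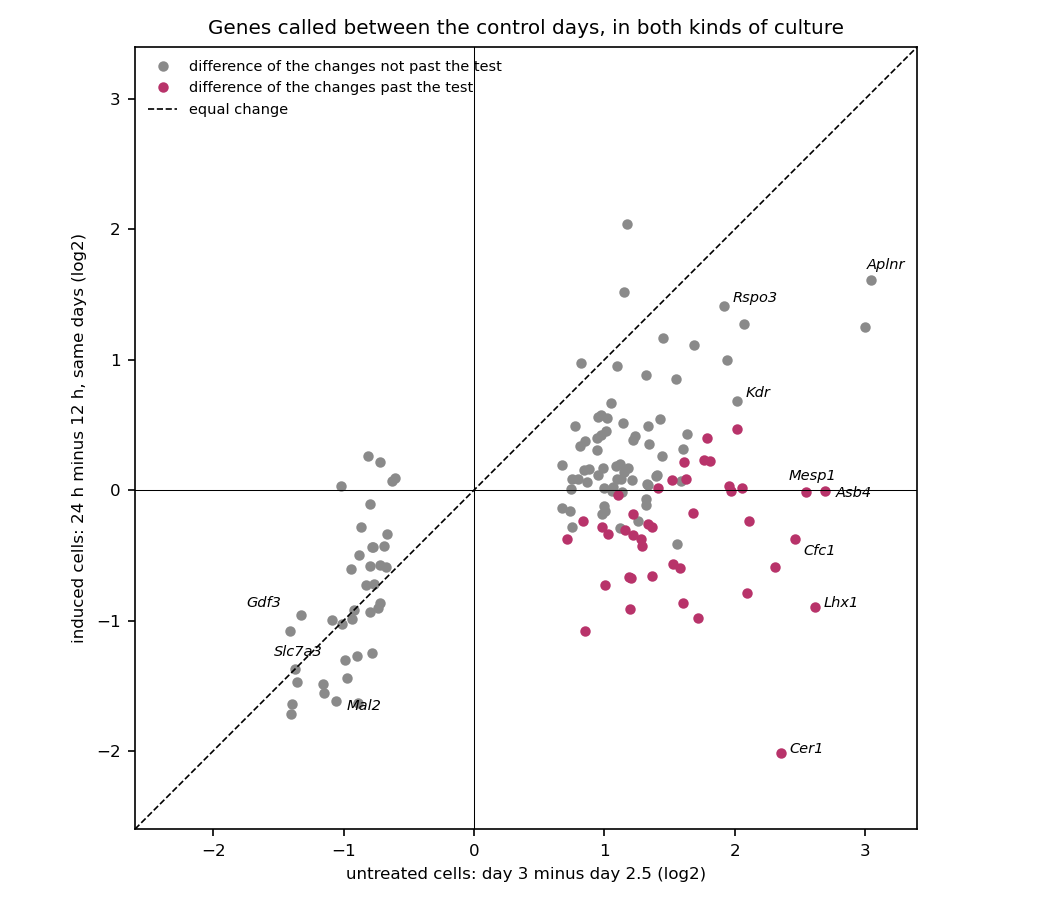
Change over the same 12 h in untreated cells (horizontal axis, day 3 minus day 2.5, log2) and in induced cells (vertical axis, 24 h minus 12 h, log2) for the 151 genes called in untreated cells; dark red points passed the test of the difference and the dashed line marks equal change. Genes that fell gather near that line, with medians of -0.88 and -0.90, and genes that rose lie mostly below it, with medians of 1.22 and 0.075.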

How the data were processed

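The deposited values are log2 signals of 35556 probe sets on 14 arrays, deposited by the authors after RMA (Expression Console), as the submitters' processing notes list; tool versions and the genome build: not given in the sources used here. Complementary DNA was amplified from small RNA amounts before labelling, per the labels' protocols. RMA is meant to bring arrays to a common distribution, so a shift of all genes may not be seen. The gene values still differed in spread between the 12 arrays of the fit. Their standard deviation over all genes ran from 1.906 (24 h induced array of replicate 3) to 2.219 (day 2.5 array of replicate 1). The platform table gave 21789 probe sets 1 symbol, 1621 several and did not list 12146; probe sets with 1 symbol gave 19938 genes, the brightest probe set standing for each of 999 genes with several. Group means of 12 arrays in 4 groups were fitted with limma 3.58.1 in R 4.3.3 (lmFit, eBayes, 8 residual degrees of freedom), and p-values were adjusted by Benjamini-Hochberg over all genes. The procedure was tested on simulated data. Members and 25 gene lists (480 of 517 symbols measured) were chosen with earlier results of these data known. Named genes are the 15 largest called rises and falls, taken among genes whose days did not overlap. They also include up to 4 called members of each list by size, or the 2 brightest where none was called, and Etv2, Gata2 and Tal1. Others named were chosen after their values were seen. Alternatives varied normalisation, filters, probe sets, line, replicate block, the moderation of variances and the libraries used. The arrays' number, 3 per group, limits the precision.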

Additional observations from a re-analysis of the deposited data

Results flagged for a closer look

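For 11 of the 15 largest rises in untreated cells, the change over the 12 h differed from that in induced cells by the test of the difference itself. The control change minus the induced change, on the log2 scale, was 4.37 for Cer1, 3.51 for Lhx1, 2.90 for Frzb, 2.88 for Dgkk, 2.83 for Cfc1, 2.70 for Asb4, 2.56 for Mesp1, 2.34 for Cyp26a1, 2.04 for Dkk1, 1.98 for Pdgfra and 1.55 for Cxcr4. Adjusted p-values of limma's test of the difference ran from 0.000113 for Asb4 and Cfc1 to 0.0216 for Dkk1. These genes were picked for a large control change, which raises every difference. The induced change itself was called for Cer1 among them (-2.02). Dixon's test for a single distant array was not applied to groups of 3 arrays.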

How the results depend on the processing

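The main test called 151 genes. No named called gene changed direction under any alternative run. Leaving arrays out could not have turned one, since the days of called genes did not overlap. Of 500 list medians, 50 moved by at least the spread between the day 3 arrays, and their signs were not compared. Deviations from the group mean correlated between same-numbered arrays of the 2 days at 0.556, 0.221 and 0.0411 for replicates 1, 2 and 3. Pairs of unlike number ran from -0.465 to 0.322, so only replicate 1 stood above all of those. The main fit used group means only and did not pair the days by number, although replicate 3 was iB1 on both days. With the replicate block, 344 genes were called (197 higher, 147 lower, all 151 among them) and 163 for the difference from induced cells, against 85. A new quantile normalisation gave 201 calls between the control days and 139 for that difference. Requiring 2-fold as well left 97 genes. Without 1 replicate of every group the calls ranged from 17 to 189 and those of the difference from 2 to 73; without single control arrays the calls ranged from 67 to 130. The lowest values came without replicate 3. Higher genes made up 74.2% of calls, 57.3% with the block and 100% without replicate 2, where none of the 39 falls was called. Among genes named as not called, Evx1 and Vim passed with the block, and Dppa2, Etv2, Fn1, Id1, Krt19, Lgr5, Mir302a, Mir302d, Mir367 and Tubb3 with the block and under at least 1 other alternative. Line as a covariate gave 176 calls, centring 149, dim genes left out 192, all probe sets 137, the 6 control arrays alone 151 with 121 shared. An alternative chosen after seeing the data, without the 24 h induced array of replicate 3, gave 215 calls and 91 for the difference. Dim genes limit what can be seen: 19 of 26 microRNA genes lay below the 40th percentile of signal.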

Other observations

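Further called genes were chosen after their values were seen. Pkd1l1, a polycystin-like protein, rose by 1.41 ± 0.168 (5.03, 4.87 and 4.92 on day 2.5, then 6.71, 6.07 and 6.27), Enkur by 1.32 ± 0.257 and Nme5 by 1.07 ± 0.204 (limma adjusted p = 0.000733, 0.0262 and 0.0235). Enkur was dim throughout, at 2.50 to 3.04 on day 2.5 and 3.30 to 4.42 on day 3. Pkd1l1 and Nme5 lost their call without replicate 2 and without replicate 3, Enkur without replicate 3 and after a new quantile normalisation, and Enkur and Nme5 also without single control arrays and in the fit of the 6 control arrays.

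The imprinted, paternally expressed genes Peg3 and Igf2 rose by 1.33 ± 0.154 and 1.17 ± 0.200, and Gpc3, a glypican that binds growth factors, by 1.16 ± 0.155 (limma adjusted p = 0.00055, 0.011 and 0.00206). Peg3 was bright, at 8.77 to 9.36 on day 2.5 and 10.28 to 10.46 on day 3. Igf2 rose by 2.05 in induced cells, and the difference between the changes did not pass the test (adjusted p = 0.42), and Gpc3 changed by -0.30 there, a difference that did (adjusted p = 0.00647). Peg3, Igf2 and Gpc3 lost their call without replicate 2 and without replicate 3, Igf2 also without the day 2.5 array of replicate 2 or the day 3 array of replicate 3. Cyp26c1, a relative of Cyp26a1, rose by 0.67 (adjusted p = 0.0361) and lost its call without replicate 1, 2 or 3. The gene B130016D09Rik, without a described function here, rose from 5.23, 4.94 and 4.78 to 7.19, 6.73 and 6.91, a rise of 1.96 ± 0.195 (adjusted p = 0.00023), and kept its call with any library left out.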
